A study of Zea mays with 12 samples.

Results

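A set of 52 maize (Zea mays) genes had lower transcript levels in Sdw3 than in N18 in both growing tissues that were sequenced, out of 39514 genes in the deposited tables. Sdw3 is given in the series title as a maize mutant and stands beside N18 in the cultivar label of the samples; the labels used here give neither the mutated gene nor how the lines are related. The groups were the Sdw3 internode, the N18 internode, the Sdw3 ligular region and the N18 ligular region, with 3 libraries each and 12 in all. The internode samples were the growing stem segment that lies between leaves 7 and 8, and the ligular samples were the zone of leaves 8 and 9 where blade meets sheath, all at the V7 vegetative stage. Levels are given as FPKM, sequenced fragments scaled to transcript length and library depth, and the tables hold 1 combined value per gene for each genotype in a tissue. The spread between the libraries and the read depth are therefore unknown, and nothing in the labels says whether replicates were separate plants.

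Members were chosen by the Sdw3 and N18 levels themselves. All 4 FPKM values had to be at least 0.2, the higher genotype had to reach 2 in each tissue, and the log2 ratio of Sdw3 to N18, with 1 added to each FPKM, had to be at or under -0.585 in both tissues, which is a 1.5-fold difference on that scale. Of 58 genes that met these limits, 6 were left out by the rule: 2 on chromosome 10 between 140 and 150 Mb, 3 on chromosome 3 between 170 and 180 Mb, and the MADS-box gene m28. Since the Sdw3 to N18 values chose the members, those values are given as a description, with no test. A value passed the floor of 2 through N18 alone for 20 members, whose Sdw3 level was under 2 in at least 1 tissue, while 32 members were at 2 or more in Sdw3 in both tissues. A further 23 genes were past both ratios with values above 0 but under the floors, and 12 were past both ratios with a value listed at 0.

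Stem height in maize depends on division and elongation of cells in the internode, and leaf angle on the ligule and auricle that form at the boundary of blade and sheath. Transcription factors of the SBP-box and homeobox families act in both organs. SBP-box proteins bind DNA through a zinc-containing domain, and many of their transcripts are targets of the microRNA miR156. Proteins of the phosphatidylethanolamine-binding family, called ZCN in maize, include florigens and their antagonists, and protein phosphatases of type 2C include negative regulators of abscisic acid signalling.

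Tissue markers did not all lie on the side of their labels. Transcripts of lg1, the SBP-box gene needed for ligule formation, were at 14.96 FPKM in the Sdw3 and 14.9 in the N18 ligular region, against 0.183 and 0.125 in the internodes of Sdw3 and N18. The ligule gene lg2 was low and uneven, at 2.95 in the Sdw3 and 0.925 in the N18 ligular region. In the internode lg2 was at 0.612 in Sdw3 and 0.235 in N18. The homeobox genes lg3, lg4a and lg4b, also on the list of ligular markers, lay on the internode side. There lg3 was at 51.5 in Sdw3 and 34.2 in N18, lg4a at 25.8 and 21.2, and lg4b at 15.4 and 14.9. In the ligular region lg3 was at 0 in Sdw3 and 0.0727 in N18, lg4a at 0.190 and 0.182, and lg4b at 0.498 and 0.388. KN-1, the homeobox gene of the shoot meristem, was at 180 in the Sdw3 and 172 in the N18 internode and listed at 0 in both ligular samples. In the ligular region other markers differed between the genotypes. All 4 green blade markers given here were higher in Sdw3. The C4 photosynthesis genes pep1 and ME1 were at 175 and 73.9 in Sdw3 against 35.1 and 16.7 in N18. C4ppdkZm1 was at 476 in Sdw3 against 239.9 in N18, and ssu1 at 465 in Sdw3 against 431 in N18. Both secondary wall markers given here were lower, CesA12 at 17.4 in Sdw3 against 39.4 in N18 and bk2 at 27.0 in Sdw3 against 75.1 in N18. In the internode C4ppdkZm1 was higher in Sdw3, at 24.8 against 5.62 in N18, and ssu1 lower, at 83.1 against 118. There CesA12 was at 4.30 in Sdw3 and 4.29 in N18, and pep1, ME1 and bk2 were low in both genotypes. The cab, DRL1, LOB domain, CesA10 and CesA11 genes of the marker list are not given here. In bulk samples fewer cells of a type and less RNA per cell cannot be told apart, and the part of such differences in the members' levels was not tested.

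The members' typical ratio was of like size in both tissues, with wide differences between genes. Their median log2 ratio was -0.82 in the internode, with a range of -2.62 to -0.59, and -0.96 in the ligular region, with a range of -2.63 to -0.60. Over the 17664 genes that met the floors outside the excluded stretches the medians were -0.03 and 0.00. As FPKM, the median member was 2.01-fold lower in Sdw3 in the internode and 2.08-fold lower in the ligular region. In 16 members the FPKM was at least 2-fold lower in both tissues, and in 4 at least 3-fold. The ratio of FPKM was larger in the ligular region for 30 members and in the internode for 22.

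**Figure D1:**
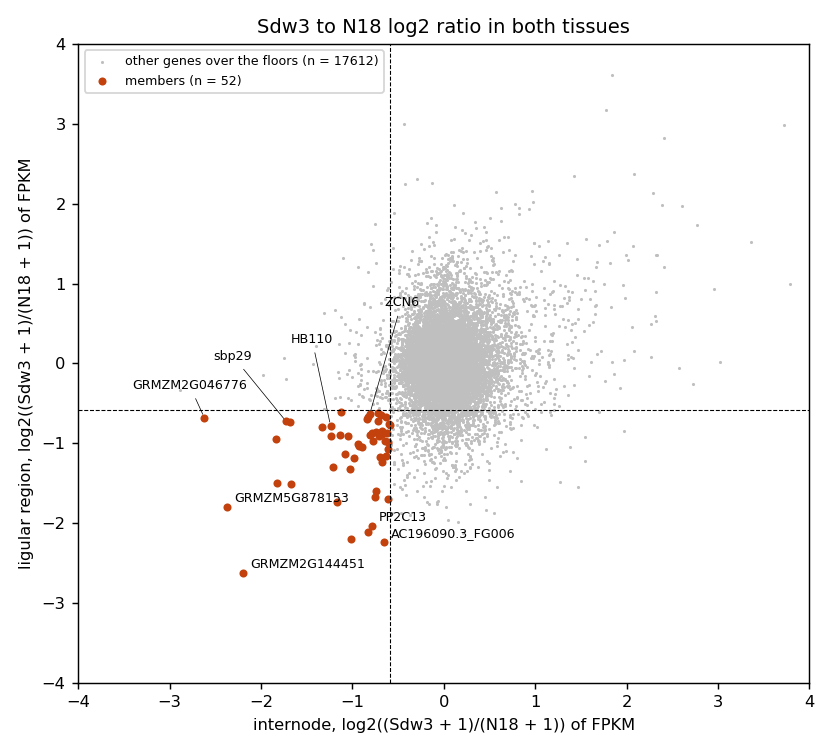
Each point is a gene that met the floors on low values; the axes are the log2 ratio of Sdw3 to N18 with 1 added to each FPKM, in the internode (x) and the ligular region (y), and dashed lines mark the threshold of -0.585. The 52 members fill the lower left corner by construction, where GRMZM2G144451 lies at -2.20 and -2.63 and GRMZM2G046776, the lowest in the internode, at -2.62 and -0.68.

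Past the same threshold, 197 of the 17664 genes (1.12%) had lower levels in the stem tissue, 868 (4.91%) had lower levels in the leaf tissue, and 0.294% had both. The 52 members were thus 26.4% of the genes lowered in the internode and 5.99% of those lowered in the ligular region. Opposite directions past the same size were found too. Lower in the internode and higher in the ligular region were 18 genes, 9.14% of those lower in the internode. Over all 17664 genes 5.58% were higher in the ligular region. Higher in the internode and lower in the ligular region were 51 genes, 5.88% of those lower in the ligular region. Over all 17664 genes 3.16% were higher in the internode. An increase of the same size in both tissues was found for 169 genes. Whether these counts differ beyond the error of the measurements was not tested, as no value per library was used here.

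In the authors' deposited table, 44 of the 52 members had an adjusted p under 0.05 as lower in the internode, where 4.76% of all tested genes were called lower, and 49 in the ligular region, where 13.7% were. Both calls were made for 44 members, as for 1.04% of the genes tested in both tissues; the same contrasts chose the members, so nothing is read from these shares. For the other 8 members at least 1 call was missing: 5 were called in the ligular region only and 3 in neither tissue.

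**Figure D2:**
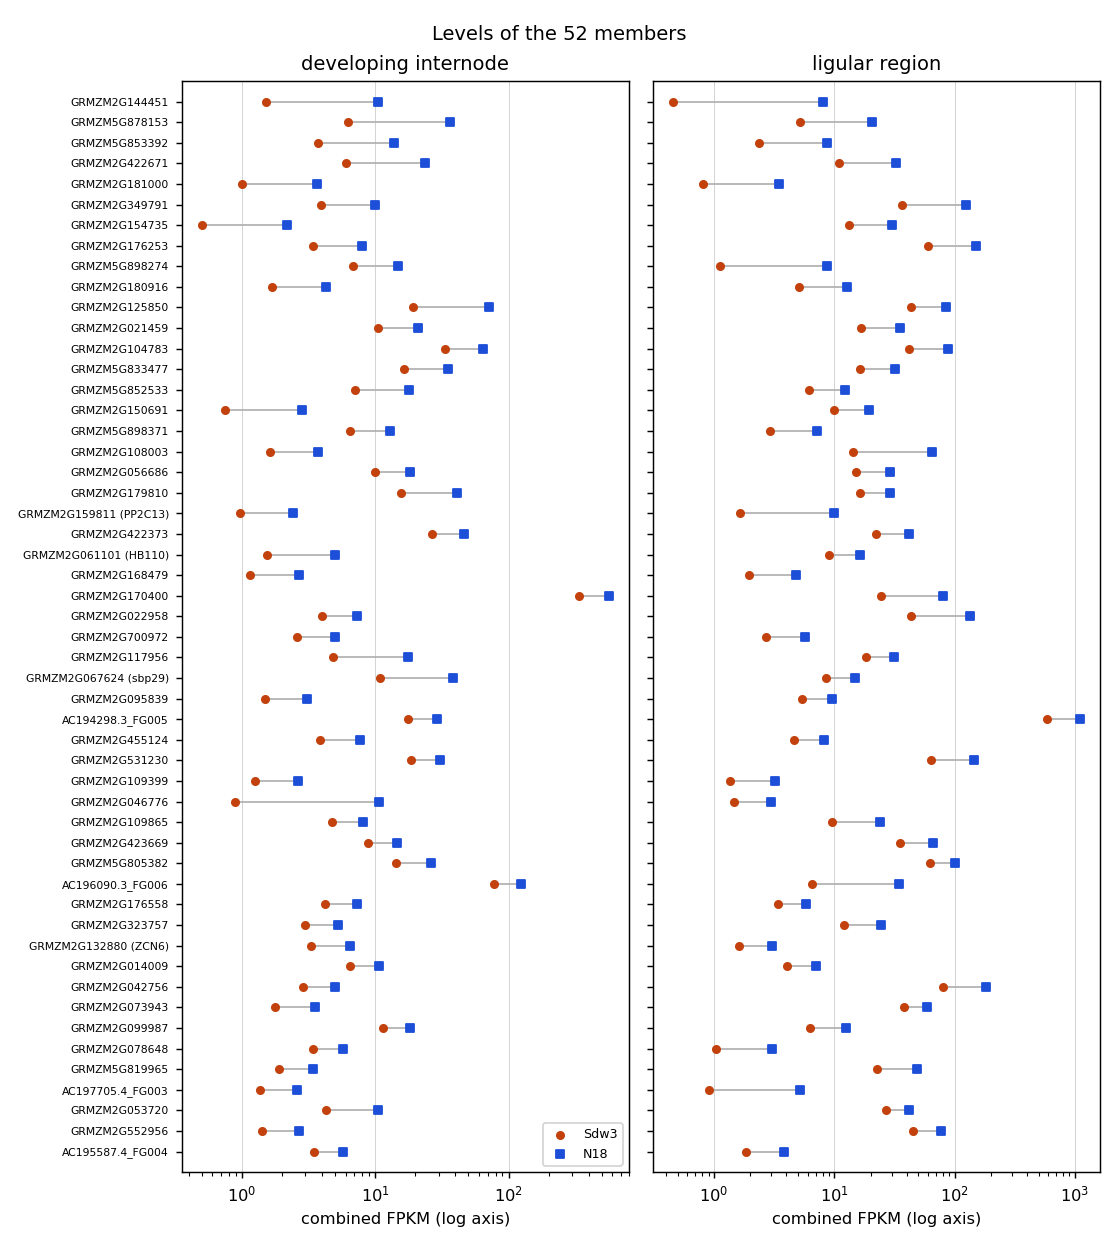
Combined FPKM (log axis) of the 52 members in Sdw3 (circles) and N18 (squares) in the internode (left panel) and the ligular region (right panel), with the most lowered gene at the top, by the log2 ratio in the tissue where it was less lowered. N18 levels run from 2.19 to 564 in the internode and from 2.96 to 1103 in the ligular region, and the Sdw3 point lies left of the N18 point in every row.

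Most members had no informative name, and the share of such names over all genes was not counted. In the RefSeq table of a later maize assembly (Zm-B73-REFERENCE-NAM-5.0) 33 of the 52 identifiers matched an entry and 19 did not, and 4 of the matched entries carried a name that says what the gene is: sbp29, HB110, ZCN6 and PP2C13. The other 29 have only locus numbers or marker names, so no role is given for them here.

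The SBP-box transcription factor gene sbp29 (GRMZM2G067624; chromosome 7, 151254397 to 151256086) was at 10.96 FPKM in the Sdw3 internode against 38.6 in N18, and at 8.55 in the Sdw3 ligular region against 14.8 in N18. The ratio was thus larger in the stem, 3.52-fold, than in the leaf, 1.73-fold. Among 24 SBP-box genes matched by name, 5 of 17 tested were called lower and 0 higher in the internode in the authors' deposited table (4.76% of all tested genes were lower there and 6.54% higher), and 4 of 18 lower and 1 higher in the ligular region (13.7% and 13.1%). Besides sbp29, only sbp27 and sbp6 of these genes were called lower in both tissues. Levels of sbp27 were 20.8 in the Sdw3 and 36.2 in the N18 internode, and 7.91 in the Sdw3 and 11.7 in the N18 ligular region, just short of the ligular threshold. The gene sbp6 was at 15.5 in the Sdw3 and 19.97 in the N18 internode and at 6.55 in the Sdw3 and 10.6 in the N18 ligular region, and missed the internode threshold. The unbranched genes ub3 and ub2 had internode ratios near that of sbp29 (log2 ratios of -1.75 and -1.31, against -1.73), while their ligular log2 ratios were 0.07 and 0.64. The median log2 ratio of the 14 SBP-box genes over the floors was -0.20 in the internode and -0.10 for the ligular region, against -0.03 and 0.00 over all genes.

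HB110 (GRMZM2G061101; chromosome 1, 257512112 to 257518809), a homeobox gene, was at 1.54 in the Sdw3 internode against 5.01 in N18, and at 9.09 in the Sdw3 ligular region against 16.3 in N18. The gene was more abundant in the leaf, and its ratio was larger in the stem, 3.24-fold against 1.795-fold. Of 35 homeobox genes tested in the internode, 3 were called lower and 5 higher in the authors' deposited table, and of 28 tested in the ligular region 7 lower and 6 higher. Over all tested genes 4.76% were called lower and 6.54% higher in the internode, and 13.7% lower and 13.1% higher in the ligular region. HB110 was the sole homeobox gene called lower in both tissues. HB21, HB2 and HB115, by contrast, were called higher in both, with HB21 at 16.8 in the Sdw3 and 10.4 in the N18 internode and at 15.1 in the Sdw3 and 9.08 in the N18 ligular region. The median log2 ratios of the 24 homeobox genes over the floors were 0.10 and -0.05.

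ZCN6 (GRMZM2G132880; chromosome 4, 188561913 to 188563106) belongs to the family of phosphatidylethanolamine-binding proteins. It was at 3.29 in the Sdw3 internode against 6.52 in N18, and at 1.60 in the Sdw3 ligular region against 3.05 in N18. The ratio was close to 2-fold in both tissues, and all 4 levels were low. Only ZCN6 and ZCN3 of 17 genes of this family were over the floors; ZCN3 was at 34.1 in the Sdw3 and 17.99 in the N18 internode and at 17.5 in the Sdw3 and 17.7 in the N18 ligular region. In the authors' deposited table ZCN6 was the sole family member called lower in both tissues, among 5 tested in each, with ligular adjusted p = 0.0227.

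PP2C13 (GRMZM2G159811; chromosome 10, 101377173 to 101382475), a protein phosphatase 2C gene by name, was at 0.974 in the Sdw3 internode against 2.41 in N18, and at 1.65 in the Sdw3 ligular region against 9.91 in N18. Its ratio was larger in the leaf, 5.995-fold, than in the stem, 2.47-fold. Of the phosphatase 2C genes, a family looked at after its values had been seen, 3 of 19 tested were called lower and 3 higher in the internode in the authors' deposited table (4.76% and 6.54% over all tested genes), and 8 of 22 lower and 1 higher in the ligular region (13.7% and 13.1%). PP2C25 and PP2C2 were the other genes of the family called lower in both tissues. PP2C25, which lies in the chromosome 10 stretch that the rule leaves out, was at 7.11 in the Sdw3 and 9.54 in the N18 internode and at 6.09 in the Sdw3 and 12.9 in the N18 ligular region. The family's median log2 ratio over 17 genes above the floors was -0.08 in the internode and -0.18 for the ligular region.

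**Figure D3:**
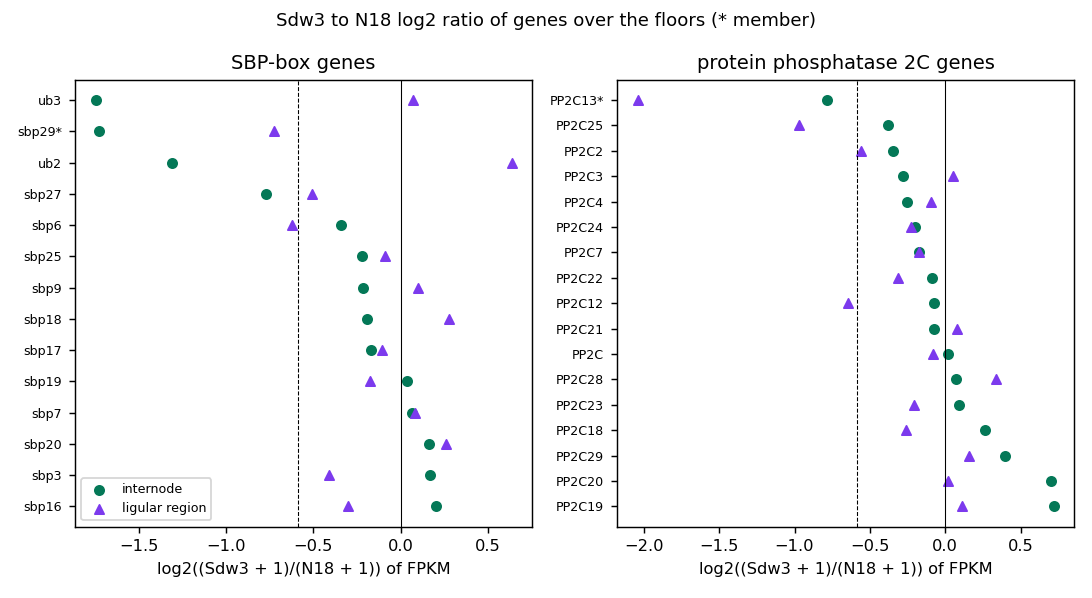
Log2 ratio of Sdw3 to N18, with 1 added to each FPKM, of the SBP-box genes (left panel) and protein phosphatase 2C genes (right panel) over the floors, in the internode (circles) and the ligular region (triangles); the dashed line is the threshold of -0.585 and an asterisk marks a member. Only sbp29 and PP2C13 have both points left of the line.

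No growth-regulating factor, MYB, bHLH, bZIP, NAC, WRKY or AP2/ERF gene matched by name was a member, nor any MADS-box gene other than the excluded m28. Over all tested genes the authors' deposited table called 4.76% lower and 6.54% higher in the internode, and 13.7% lower and 13.1% higher in the ligular region. Growth-regulating factors gave 12 lower and 0 higher of 19 tested in the internode in the authors' deposited table and 1 lower and 6 higher of 18 in the ligular region. Their median log2 ratios over 14 genes above the floors were -0.21 and 0.22. AP2/ERF genes gave 0 lower and 3 higher of 23 in the internode, and 16 lower and 2 higher of 28 in the ligular region. In the families without a member, 4 genes were called lower in both tissues, as were 1.04% of all genes tested in both: GRF1, the MADS-box genes m28 and MADS76, and bHLH116. MADS76 was at 2.86 in the Sdw3 and 4.91 in the N18 internode and at 103 in the Sdw3 and 142 in the N18 ligular region, short of the ligular threshold. The gene bHLH116 was past both ratios but under the internode floor, at 0.550 in the Sdw3 and 1.60 in the N18 internode and at 20.5 in the Sdw3 and 126 in the N18 ligular region.

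The members' positions were not used by the rule other than in the exclusions. Chromosome 1 held 14 members, 0.491% of its 2854 genes over the floors, against 0.294% over all chromosomes. The shares on chromosomes 2, 4 and 6 were 0.382%, 0.388% and 0.399%. Chromosome 3 held 1 of 1817, after the rule had left out 3 genes there, and chromosome 5 held 3 of 2240. Among genes over the floors, taken in order along a chromosome, members stood next to each other in 2 places. In the first, 4 consecutive genes within 292 kb of chromosome 1 were all members, and in the second, 2 adjacent genes on chromosome 6. Genes with an increase of the same size in both tissues formed 3 such runs, none longer than 2 genes.

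The run on chromosome 1 (201904942 to 202197410 on B73 RefGen_v3) consisted of GRMZM2G056686, GRMZM5G852533, GRMZM5G833477 and GRMZM2G422373. In the internode GRMZM2G056686 was at 9.97 in Sdw3 against 18.2 in N18, and in the ligular region at 15.03 in Sdw3 against 28.9 in N18. GRMZM5G852533 was at 7.04 in Sdw3 against 17.9 in N18 in the internode, and at 6.15 in Sdw3 against 12.4 in N18 in the ligular region. The neighbour GRMZM5G833477 was at 16.6 in Sdw3 and 35.3 in N18 in the internode, and at 16.5 in Sdw3 and 31.9 in N18 in the ligular region. The last gene, GRMZM2G422373, was at 26.7 in Sdw3 and 46.6 in N18 in the internode, and at 22.2 in Sdw3 and 41.6 in N18 in the ligular region. The Sdw3 level of these 4 genes was 39.4% to 57.2% of the N18 level in the internode and 49.7% to 53.4% in the ligular region. Their log2 ratios in the ligular region lay within -0.91 to -0.88. The rule bounds these ratios, so nothing is read from their likeness. Over all 52 members the median was 2.01-fold lower in the internode and 2.08-fold lower in the ligular region. All 4 loci are free of overlap with another gene of the files.

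Genes over the floors on both sides of this run were not past the threshold. Of the 8 nearest genes over the floors on each side, log2 ratios in the internode ran from -0.27 to 0.27, with a median of 0.00, and those in the ligular region from -0.31 to 0.93, with a median of 0.11. The run begins 122 kb after the nearest such gene on its low-coordinate side, and the next such gene follows 137 kb after its end. Closer to the run, GRMZM2G165011, which was under the ligular floor, was at 4.45 in the Sdw3 and 3.88 in the N18 internode and at 1.52 in the Sdw3 and 1.797 in the N18 ligular region. Between the run and the next gene over the floors, GRMZM2G123016 was at 0.494 in the Sdw3 and 1.14 in the N18 ligular region, called lower there in the authors' deposited table, and under 0.1 FPKM in both internodes. A second gene there, GRMZM2G309269, lay the other way, at 1.63 in the Sdw3 and 0.348 in the N18 ligular region (adjusted p = 0.0665 in the authors' deposited table) and at 0.113 in the Sdw3 and 0.294 in the N18 internode. Within the run 7 gene models are annotated; the 3 that are not members reached at most 0.173 FPKM. The first gene over the floors beyond the run is br2 (GRMZM2G315375; chromosome 1, 202334823 to 202342008), brachytic2, which encodes a transporter of auxin and is known for its need in the elongation of lower stalk internodes. Its level was 97.3 in the Sdw3 and 80.3 in the N18 internode, and 259.9 in the Sdw3 and 215 in the N18 ligular region, with adjusted p = 0.0654 and 0.0703 in the authors' deposited table.

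**Figure D4:**
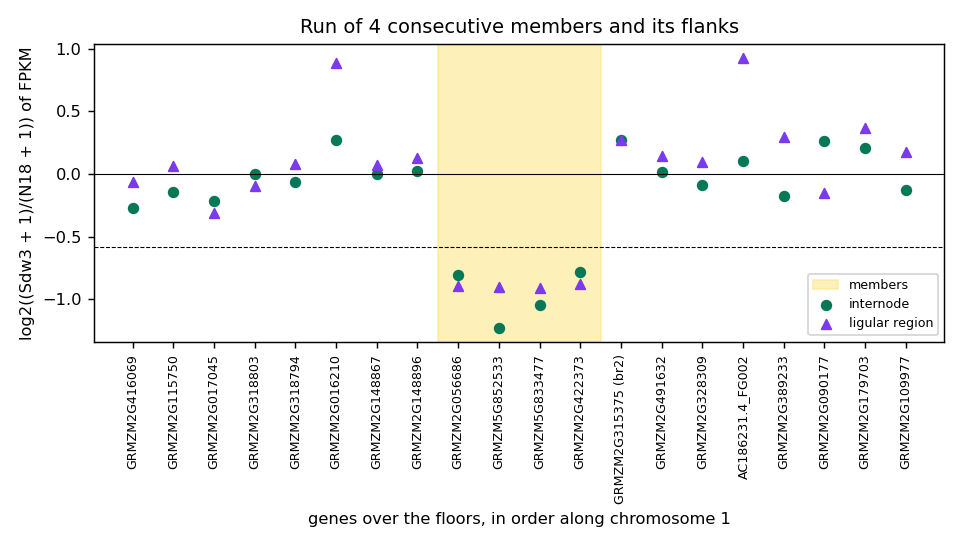
Log2 ratio of Sdw3 to N18, with 1 added to each FPKM, of the genes over the floors around the run on chromosome 1, in their order along the chromosome, in the internode (circles) and the ligular region (triangles); the band marks the 4 members and the dashed line the threshold of -0.585. The 4 members lie between -1.23 and -0.78, and the 16 flanking genes between -0.31 and 0.93.

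On chromosome 6 the adjacent members AC195587.4_FG004 and GRMZM2G700972 are 4.199 kb apart. AC195587.4_FG004 (78774140 to 78783661) was at 3.48 in the Sdw3 and 5.75 in the N18 internode and at 1.84 in the Sdw3 and 3.82 in the N18 ligular region. GRMZM2G700972 was at 2.61 in the Sdw3 and 5.03 in the N18 internode and at 2.71 in the Sdw3 and 5.71 in the N18 ligular region. Its locus overlaps another gene, so its reads may be divided, and it was called in neither tissue in the authors' deposited table (adjusted p = 0.165 and 0.139). Near the end of chromosome 1, the members GRMZM2G422671 and GRMZM2G099987 lie 22.1 kb apart with other genes between them.

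The next genes over the floors beside the members, leaving out members, numbered 96, and their median log2 ratio was -0.03 in the internode and -0.01 for the ligular region. Of these neighbours 4.17% were called lower in the internode in the authors' deposited table, against 4.76% of all tested genes, and 15.6% in the ligular region, against 13.7%. Past the threshold of the rule, 1 of the 96 was lower in the stem and 7 in the leaf. The lowest of these in the leaf was GRMZM2G082032, beside the member GRMZM2G531230, with log2 ratios of -0.30 in the stem and -1.16 in the leaf; the RefSeq entry of GRMZM2G531230 lists both identifiers.

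The members that were lowest in both tissues by the weaker of their ratios had no informative name. GRMZM2G144451 (chromosome 4, 197327992 to 197331315) came first, at 1.52 in the Sdw3 internode against 10.6 in N18 and at 0.459 in the Sdw3 ligular region against 8.02 in N18, 6.98-fold and 17.5-fold lower. GRMZM5G878153 (chromosome 1, 297022671 to 297039866) was at 6.23 in the Sdw3 internode against 36.5 in N18 and at 5.20 in the Sdw3 ligular region against 20.6 in N18. It had the longest locus of the members, 17196 bases. GRMZM5G853392 (chromosome 5, 8709194 to 8720923) was at 3.70 in the Sdw3 internode against 13.9 in N18, and at 2.37 in the Sdw3 ligular region against 8.63 in N18. Of these 3 genes, GRMZM5G853392 had the most even ratios, 3.77-fold lower in the stem and 3.65-fold in the leaf.

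GRMZM2G422671 (chromosome 1, 299041579 to 299042851), whose entry carries the marker name umc2620, was at 6.02 in the Sdw3 internode against 23.8 in N18 and at 10.9 in the Sdw3 ligular region against 32.5 in N18. On chromosome 5, GRMZM2G181000 was at 1.002 in the Sdw3 internode against 3.66 in N18 and at 0.813 in the Sdw3 ligular region against 3.44 in N18. GRMZM2G180916 was at 1.67 in Sdw3 against 4.28 in N18 in the internode and at 5.06 in Sdw3 against 12.8 in N18 in the ligular region. Next in this order were GRMZM2G125850, at 19.1 in the Sdw3 internode against 70.9 in N18 and at 43.5 in the Sdw3 ligular region against 85.1 in N18, and GRMZM2G021459, at 10.5 in the Sdw3 internode against 21.1 in N18 and at 16.8 in the Sdw3 ligular region against 34.9 in N18. In 21 of the 52 members the log2 ratios of the tissues were within 0.2 of each other.

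N18 levels of both tissues entered the rule, through the ratios and the floor of 2, so the levels that follow are a description of the members from which nothing is read. In N18, 15 of the 52 members (28.8%) were at least 4-fold higher in the ligular region than in the internode, against 7.09% of the 17664 genes over the floors, and 1 member (1.92%) was at least 4-fold higher in the internode, against 5.09%. The members' median log2 ratio of N18 ligular region to N18 internode was 0.54, against -0.18 over all genes. The tables of the tissues were made separately, so levels across them are set side by side without a test.

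**Figure D5:**
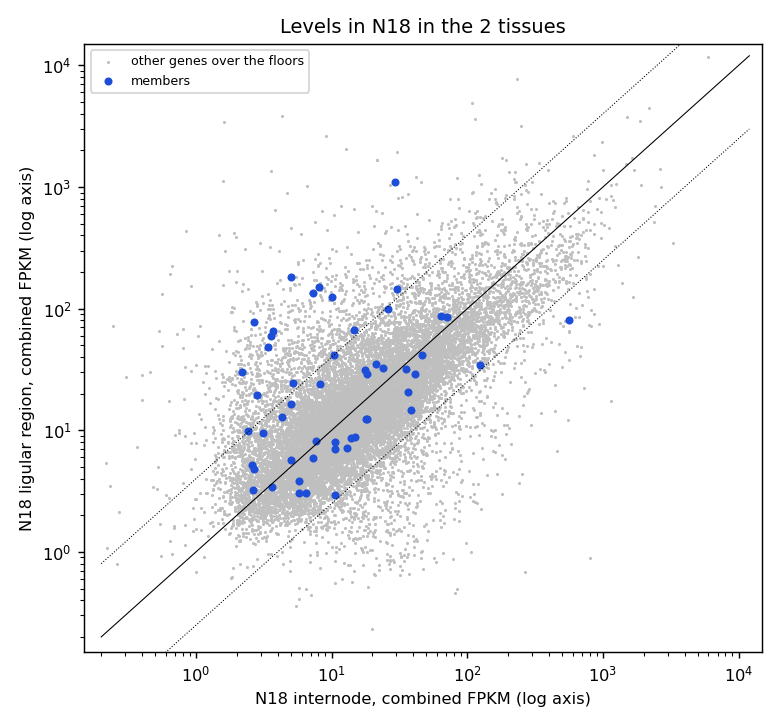
Combined FPKM in N18 in the internode (x, log axis) and in the ligular region (y, log axis) of the members and of the other genes over the floors; the solid line marks equal levels and dotted lines a 4-fold difference. Of the members, 15 lie on or above the upper dotted line and 1 below the lower line.

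The most leaf-weighted members were AC194298.3_FG005, GRMZM2G042756 and GRMZM2G552956. GRMZM2G042756 (chromosome 2, 16543814 to 16545074) was at 80.6 in the Sdw3 ligular region against 181 in N18, and at 2.88 in the Sdw3 internode against 5.02 in N18. GRMZM2G552956 was at 45.3 in the Sdw3 ligular region against 77.2 in N18, and at 1.43 in the Sdw3 internode against 2.67 in N18. Both kept a level many times higher in the leaf than in the stem in Sdw3: over the 15 members the ratio of ligular region to internode ran from 1.70 to 33.4 in Sdw3 and from 4.12 to 37.7 in N18, with medians of 11.98 in Sdw3 and 14.3 in N18.

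Ratios of Sdw3 to N18 varied among these leaf-weighted genes; they rest on the N18 values that picked the 15, so the tissues' ratios are not compared over them. GRMZM2G108003 (chromosome 1, 211246762 to 211247955) was at 14.3 in the Sdw3 ligular region against 65.1 in N18, 4.55-fold lower, and at 1.64 in the Sdw3 internode against 3.70 in N18. GRMZM2G022958 was at 43.8 in the Sdw3 ligular region against 134 in N18, and at 3.98 in the Sdw3 internode against 7.32 in N18. GRMZM2G349791 was at 36.7 in the Sdw3 ligular region against 124 in N18, and at 3.89 in the Sdw3 internode against 9.98 in N18. GRMZM2G154735 was 2.29-fold lower in the ligular region and 4.35-fold in the internode, where its levels were 0.503 in Sdw3 and 2.19 in N18. The authors' deposited table did not call it lower in the internode (adjusted p = 0.143). GRMZM2G176253 was at 59.5 in the Sdw3 ligular region against 149.99 in N18, and at 3.43 in the Sdw3 internode against 8.03 in N18, a similar ratio in both. GRMZM2G531230 was at 63.4 in the Sdw3 ligular region against 144 in N18, and at 18.5 in the Sdw3 internode against 30.5 in N18.

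The member with the reverse distribution was GRMZM2G170400 (chromosome 6, 162503095 to 162507889), the member with the highest FPKM in the N18 internode. It was at 335 in the Sdw3 internode against 564 in N18 and at 24.4 in the Sdw3 ligular region against 80.1 in N18. AC196090.3_FG006 (chromosome 9, 154286013 to 154288260) was also more abundant in the stem, at 78.1 in the Sdw3 internode against 124 in N18 and at 6.50 in the Sdw3 ligular region against 34.4 in N18. GRMZM2G104783, at 33.3 in the Sdw3 internode against 64.3 in N18 and at 42.0 in the Sdw3 ligular region against 87.4 in N18, was among the 5 most abundant members of the stem as well. In GRMZM2G170400 and AC196090.3_FG006 the ratio was larger in the tissue with the lower level, 3.29-fold and 5.30-fold in the ligular region against 1.68-fold and 1.58-fold in the internode.

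AC196090.3_FG006 had the largest difference between tissues among members with a larger ratio in the leaf, a ligular log2 ratio 1.58 under that of the internode. It was followed by GRMZM2G108003, PP2C13, GRMZM5G898274 and AC197705.4_FG003. GRMZM5G898274 was at 1.11 in the Sdw3 ligular region against 8.72 in N18, 7.85-fold lower, and at 6.85 in the Sdw3 internode against 14.8 in N18. AC197705.4_FG003 was at 0.911 in the Sdw3 ligular region against 5.22 in N18, and at 1.37 in the Sdw3 internode against 2.60 in N18. The opposite extreme was GRMZM2G046776 (chromosome 7, 9201836 to 9205519), at 0.887 in the Sdw3 internode against 10.6 in N18, 11.97-fold lower, and at 1.47 in the Sdw3 ligular region against 2.96 in N18. In this gene the N18 internode stands apart from the other 3 groups, which lie between 0.887 and 2.96. After it came sbp29, GRMZM2G117956, GRMZM2G125850 and GRMZM5G878153. GRMZM2G117956 was at 4.80 in the Sdw3 internode against 17.6 in N18 and at 18.2 in the Sdw3 ligular region against 31.1 in N18. Differences between the tissues' ratios were not tested.

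The 8 members without both calls were mostly low in the stem, with a median N18 internode level of 2.89. In the authors' deposited table GRMZM2G700972, GRMZM2G078648 and AC194298.3_FG005 were called in neither tissue. The 5 called in the ligular region only were GRMZM2G154735, GRMZM2G168479, GRMZM2G095839, AC197705.4_FG003 and GRMZM2G552956. AC194298.3_FG005 (chromosome 3, 204651105 to 204656000) was the most abundant member of the leaf, at 587 in the Sdw3 ligular region against 1103 in N18, with 17.5 in the Sdw3 internode against 29.2 in N18. Its locus overlaps another gene, so its values are uncertain, and the authors' deposited table gives it adjusted p = 0.837 for the internode and 0.745 for the ligular region. GRMZM2G078648 was at 3.42 in the Sdw3 internode against 5.77 in N18 and at 1.04 in the Sdw3 ligular region against 3.05 in N18. Without AC194298.3_FG005 and GRMZM2G700972, the members with overlapping loci, 50 members were left.

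As a group the members were shorter than other genes over the floors, with a median locus of 2141 bases and a range of 514 to 17196, against a median of 3966 bases. Their N18 levels, which the rule used, had a median of 10.2 FPKM in the internode, against 15.9 over all genes, and of 24.3 FPKM in the ligular region, against 14.9. In 7 members the N18 internode level was under 3 FPKM, where the added 1 shrinks a ratio.

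At the threshold, the members nearest to it were AC195587.4_FG004, GRMZM2G552956 and GRMZM2G053720, whose weaker log2 ratios were -0.592, -0.598 and -0.604. GRMZM2G053720 was at 4.25 in the Sdw3 internode against 10.4 in N18 and at 26.9 in the Sdw3 ligular region against 41.5 in N18. Just outside were GRMZM2G420883, GRMZM5G858754 and GRMZM5G802232, with weaker log2 ratios of -0.583, -0.576 and -0.575. GRMZM2G420883 was at 25.8 in the Sdw3 internode against 39.1 in N18 and at 147 in the Sdw3 ligular region against 298 in N18.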

How the data were processed

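RNA of 12 samples, 3 for each genotype and tissue, was sequenced. The submitters' processing notes name CASAVA 1.8, bcl2fastq, TopHat2 2.1.0, Cufflinks and the build B73 RefGen_v3, with no settings; how the tables were normalized, and on which gene annotation, is not given in the sources used here. The deposited FPKM values were combined by the authors over the libraries of a genotype; the unit follows from Cufflinks and the column layout. The p-value and adjusted p (q-value) of each gene are the authors' own, per the file headers, and the deposited log2 column was replaced by ratios recomputed from FPKM with a pseudocount of 1.

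The members and gene lists were chosen with earlier results of these data known. The tables were joined by gene identifier and the rule applied. Simulated tables, with planted genes lowered well past the threshold in both tissues, served as a check of the code only. That check says nothing about the members. A gene counts as overlapping when its locus shares a base with another. Families were matched by names in the RefSeq table, which paired 18445 of the 39514 identifiers with 1 entry each. A further 517 matched more than 1 entry and were given no name. The phosphatase 2C list was added after its values were seen. Genes named are the 12 members lowest by their weaker ratio, those with informative names, the 5 highest in N18 and the 5 whose ratios differ most between tissues, each way, and the 3 on each side of the threshold, which took 31 members; others are named where a run or count concerns them. The planned promoter motif search was not run, since no promoter sequences were used here, nor were tests per library. Alternatives were other pseudocounts, floors, thresholds, scalings and call limits. Python 3.11.15, numpy 2.4.6, pandas 2.3.3 and matplotlib 3.10.9 were used.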

Additional observations from a re-analysis of the deposited data

How the results depend on the processing

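The number of members was 52 as reported and between 35 and 75 with a pseudocount of 0.5, other floors, median centring, upper quartile scaling, without overlapping loci, with the exclusions kept, or with both calls required. It was 87 with a pseudocount of 0.1 and 91 with no pseudocount, and 9 at a threshold of -1. All 52 members are kept under a smaller pseudocount by arithmetic, since it can only lower a ratio that is under 0. The median log2 ratio of the members in the internode was -0.99 with a pseudocount of 0.1, and the median log2 ratio of N18 ligular region to N18 internode was 0.72 after median centring over genes above the floors. All 4 genes of the chromosome 1 run met the rule under the pseudocounts of 0.1 and 0 and under both scalings. The smaller pseudocounts could not remove them, and the scalings moved the medians by at most 0.03, so nothing is read from this. At the threshold of -1 none of the run is a member, as its ligular log2 ratios were -0.91 to -0.88. The pseudocount and scaling settings for the run, and the one that requires both calls, were chosen after seeing the data. No paired analysis was possible because the deposited tables hold a single combined value per genotype and tissue; leaving out each replicate was not run for the same reason, and neither was the motif alternative. Depth and the spread between libraries are unknown, so no difference here can be set against replicate error.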
